A study of Mus musculus with 10 samples.

Results

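Aminoacyl-tRNA synthetases, the enzymes that join each amino acid to its transfer RNA, were followed across 5 groups of mouse embryonic stem cells. The genes were those rows of the deposited gene table whose name, split at commas, held 1 of 37 listed symbols. Of these symbols 36 had a row, 20 for cytosolic enzymes and 16 for mitochondrial enzymes (gene names ending in 2), out of 49624 row names in all. Mars1 had no row of its own under that symbol and Mars stood for the gene. Of the member rows, 2 also carried another gene: Aars shared a row with Exosc6 and Farsb with 4833412K13Rik, so the source of their reads is uncertain.

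RNA was sequenced in 2 libraries per group, which the labels call biological duplicates, from cells kept in the serum-free 2i/LIF condition (inhibitors of MEK and GSK3 with the cytokine LIF). KO cells were Mof-KO cells with the alleles Mof fl/fl and Cre-ER TM, on C57BL/6J, and WT cells were wild type cells of the same strain label. The protocol names ethanol or 4-hydroxytamoxifen, the drug that activates this Cre, at 100 nM for 3 days, without saying which group received which. Released cells were E14tg2a cells given etomoxir, an inhibitor of fatty acid entry into mitochondria, for 4 days and then grown without it for 4 more days. ETO cells were E14tg2a cells given etomoxir for 4 days, and Control cells were E14tg2a cells given water. No group with active Cre and intact Mof is named in the labels, so drug, Cre and gene loss cannot be told apart. Whether a line was 1 clone is not given in the sources used here.

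In mammals most amino acids have separate synthetases for the cytosol and for the mitochondrial matrix, both encoded in the nucleus, while Gars and Kars each supply both compartments. The synthetases encoded by Dars, Eprs, Iars, Kars, Lars, Mars, Qars and Rars assemble with scaffold proteins into a multi-synthetase complex, and the remaining cytosolic enzymes act outside it. Uncharged transfer RNA activates the kinase Gcn2 (Eif2ak4), which raises translation of the transcription factor ATF4. ATF4 is known to activate genes of amino acid uptake and synthesis together with many cytosolic synthetase genes, whereas mitochondrial synthetases serve the translation of the few proteins encoded by mitochondrial DNA.

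The values are normalised counts, that is, read counts divided by 1 factor per library by the authors. A library summed to between 10562067 and 13326173 of them, from an estimated 9783467 to 16778540 reads. The members rested on an estimated 38 (Wars2, WT) to 18104 (Aars, WT) reads in a library, so counting error was widest for Wars2. Mof itself, listed as Kat8, measured 222 and 205.5 in KO, against 433.5 and 357 in WT, a log2 change of -0.88 (SE 0.11) with an adjusted p of 3.64e-05. The table holds gene totals, so the deleted part of Mof was not checked on its own. Between replicates, the median gene differed on the log2 scale by 0.147 in KO, 0.183 in WT, 0.105 in Released, 0.12 in ETO and 0.106 in Control. All 36 members passed the filter on low values, 10 or more normalised counts in 2 or more libraries, among 16056 genes tested. A gene was called where its Benjamini-Hochberg adjusted p from limma was under 0.05, and p-values measure only the spread between the duplicates. In bulk RNA, fewer cells of a type and less RNA per cell cannot be told apart. Of the 36 genes, 13 share exon bases with a neighbouring gene, and strand use in counting is not given in the sources used here. The shared part was 24.2% of exon bases for Iars2 (with Rab3gap2 among others), 15.1% for Aars, 10.7% for Fars2 and 9.5% for Farsb, and at most 8.5% for the others.

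Levels between genes can be set beside each other only per length of transcript, as FPKM (fragments scaled by transcript length and library size). By mean FPKM in Control, every cytosolic gene except Wars stood above every mitochondrial gene except Lars2; in WT, every cytosolic gene stood above every mitochondrial gene except Lars2. Qars, the glutamine enzyme, had the highest FPKM in Control (679 and 711) and in WT (535 and 549). Iars, the isoleucine enzyme, followed with 277 and 280.4 FPKM in Control and 380.0 and 438 FPKM in WT. The replicate values of Qars and Iars did not overlap in either group. Lars2, the mitochondrial leucine enzyme, was the only mitochondrial member at the level of the abundant cytosolic ones, with 185 and 186 FPKM in Control and 205 and 196 FPKM in WT. It exceeded its cytosolic partner Lars (64.0 and 63.4 FPKM in Control, 91.2 and 103 FPKM in WT). Other mitochondrial members lay between 2.30 FPKM (Mars2, the methionine enzyme) and 54.9 FPKM (Yars2, the tyrosine enzyme) in Control. The median of the 16 mitochondrial genes was 21.1 and 20.9 FPKM in Control, beside 120.4 and 124 FPKM for the 20 cytosolic genes.

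**Figure D1:**
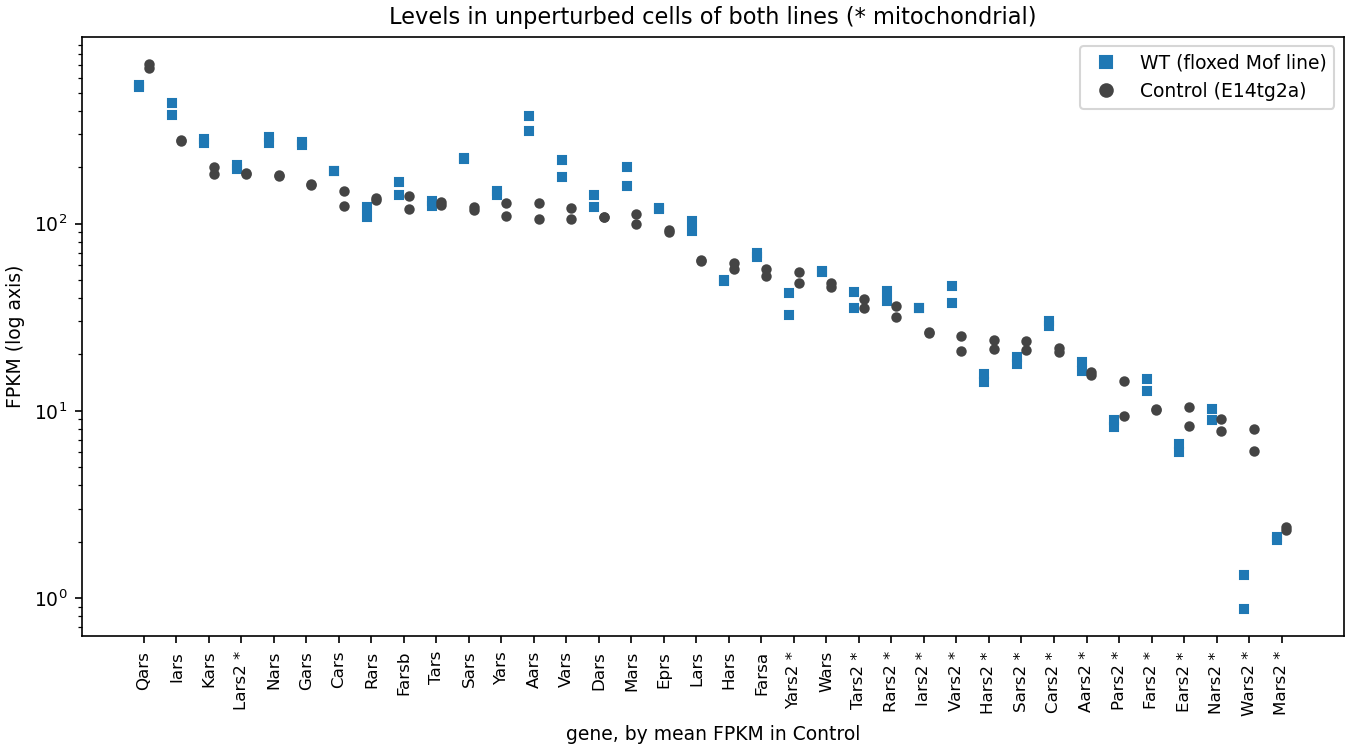
FPKM (log axis) of each synthetase gene in the WT libraries (squares) and the Control libraries (circles), 1 symbol per library, with genes ordered by their mean in Control and mitochondrial genes marked by an asterisk. Qars is highest in Control at 679 and 711 FPKM, Lars2 stands among the cytosolic genes, and Mars2 is lowest in Control at 2.30 and 2.40 FPKM.

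The comparison of KO with WT asks which transcripts differ after knockout of Mof, a histone acetyltransferase. Of the 20 cytosolic genes 10 rose, 3 fell and 7 were not called, and of the 16 mitochondrial genes 3 rose, 6 fell and 7 were not called. With total signal as the factor, 6 cytosolic genes rose and 6 fell, and 1 mitochondrial gene rose and 7 fell. Among all tested genes, 24.6% rose and 13.3% fell, together 37.9%. Rising genes were 64.8% of all calls on the authors' scale, 46.6% with TMM factors and 37% with total signal as the factor. The median log2 change was 0.16 over the cytosolic genes, -0.09 over the mitochondrial genes and 0.08 over all tested genes. Scaling each library by its total signal moved the median of all genes to -0.08 and the cytosolic median to 0. Relative to all genes the cytosolic median then lay 0.07 above and the mitochondrial median 0.18 below, against 0.08 above and 0.17 below on the authors' scale. Groups did not overlap for 26 of the 36 members, beside 64.6% of all tested genes.

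Among cytosolic enzymes outside the complex, 7 of 12 rose and 1 fell. Cars, the cysteine enzyme, measured 5364 and 5212.5 in KO, against 3654 and 3773 in WT normalised counts (log2 change 0.51, SE 0.05, adjusted p = 7.34e-06). Sars, the serine enzyme, measured 7075 and 6739 in KO, against 5168 and 5009 in WT (log2 change 0.44, SE 0.06, adjusted p = 2.89e-05). Gars, the glycine enzyme of both compartments, measured 11089.9 and 11432 in KO, against 8500.5 and 8807 in WT (log2 change 0.38, SE 0.05, adjusted p = 4.39e-05). In each of these genes both KO libraries lay above both WT libraries. Nars, the asparagine enzyme, measured 12266 and 12704 in KO, against 9504 and 10222 in WT (log2 change 0.34, SE 0.05, adjusted p = 0.000138). Tars, the threonine enzyme, measured 5525 and 5606.5 in KO, against 4349.8 and 4665 in WT (log2 change 0.31, SE 0.06, adjusted p = 0.000699). Aars, the alanine enzyme, measured 20811.5 and 19375 in KO, against 16755 and 15766 in WT (log2 change 0.31, SE 0.05, adjusted p = 0.000433). These genes also had both KO libraries above both WT libraries. Yars, the tyrosine enzyme, rose by less, with 3836 and 4034 in KO, against 3244 and 3317 in WT (log2 change 0.26, SE 0.06, adjusted p = 0.00327). Hars, the histidine enzyme, was the only member of the 12 to fall, with 956 and 1023 in KO, against 1314 and 1325 in WT (log2 change -0.42, SE 0.07, adjusted p = 0.000239). Wars, Vars, Farsa and Farsb, for tryptophan, valine and the 2 subunits of the phenylalanine enzyme, were not called, with log2 changes between -0.14 and 0.11.

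Among the 8 genes of the complex, 3 rose, 2 fell and 3 were not called. Eprs, a fused enzyme for glutamate and proline, measured 10721 and 11646 in KO, against 7326 and 8530.5 in WT (log2 change 0.50, SE 0.07, adjusted p = 4.96e-05). Lars, the leucine enzyme, measured 7202 and 7493 in KO, against 4972 and 5590.1 in WT (log2 change 0.48, SE 0.06, adjusted p = 3.77e-05). Iars measured 8056 and 8211 in KO, against 6871 and 7367 in WT (log2 change 0.19, SE 0.06, adjusted p = 0.017). In all 3 genes the KO libraries lay above the WT libraries, least clearly in Iars. Qars measured 2939.6 and 2814 in KO, against 4095 and 3935 in WT (log2 change -0.48, SE 0.06, adjusted p = 1.47e-05), the largest fall of a cytosolic member. Kars, the lysine enzyme of both compartments, measured 4543 and 4321 in KO, against 5107 and 4901 in WT (log2 change -0.18, SE 0.06, adjusted p = 0.0263). The KO libraries of Qars and Kars lay below both WT libraries. Dars, Mars and Rars, for aspartate, methionine and arginine, were not called (log2 changes 0.10, -0.05 and 0.13). Of the 3 scaffold genes, Eef1e1 rose (log2 change 0.32, SE 0.07, adjusted p = 0.00246), while Aimp1 and Aimp2 were not called (0.11 and -0.22).

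**Figure D2:**
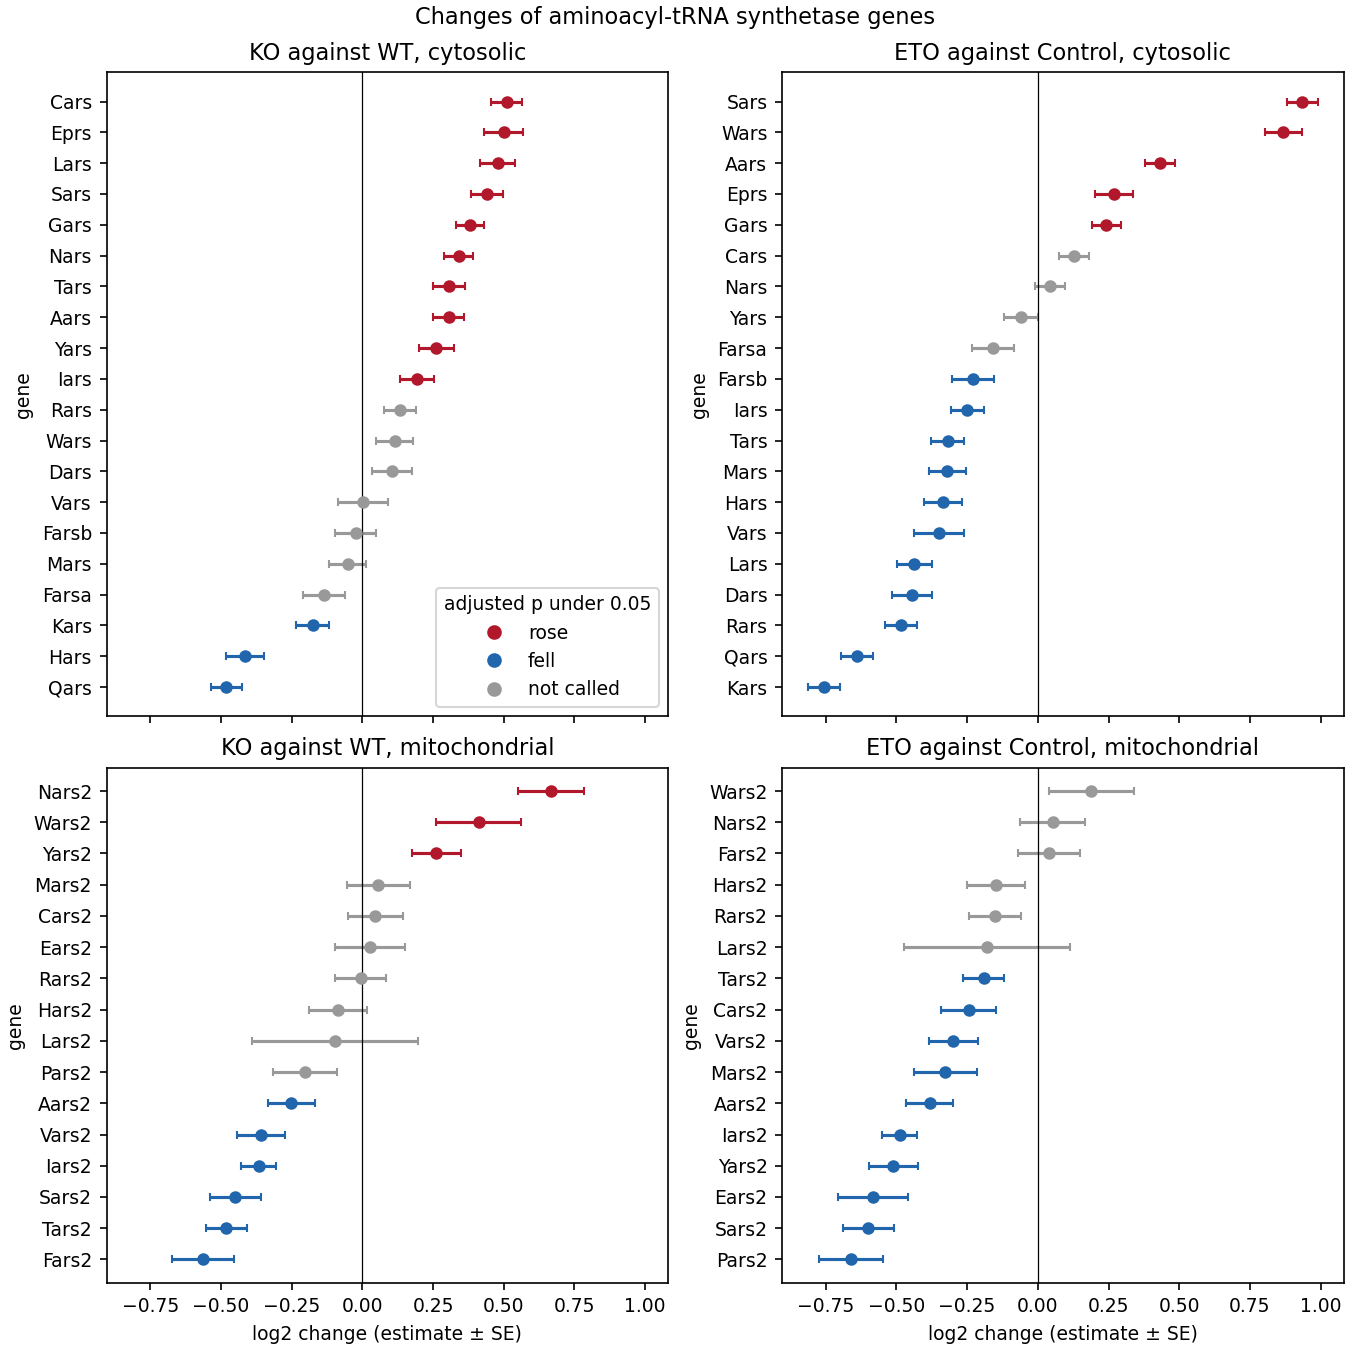
Log2 change with its SE for each synthetase gene in KO against WT (left) and ETO against Control (right), with cytosolic genes in the upper panels and mitochondrial genes in the lower ones, coloured by call. In KO 10 cytosolic genes rose and 6 mitochondrial genes fell. In ETO Sars and Wars stand apart at 0.94 and 0.87, and no mitochondrial gene rose.

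Promoter windows, from 250 bases before to 50 bases after the start site (RefSeq, GRCm38.p6), were at hand for 27 members, 13 cytosolic and 14 mitochondrial. They were searched on both strands for TGATGNAA, the core of the amino acid response element through which ATF4 and C/EBP proteins are known to act. It occurred in 5 of 13 cytosolic genes (Aars, Gars, Iars, Tars and Yars), in 0 of 14 mitochondrial genes, and in 4.51% of 27025 genes with a window. All 5 rose in KO on the authors' scale, and with total signal Gars alone kept its call. On the authors' scale, of the 8 cytosolic genes with a window and no match 2 rose and 2 fell. No window was at hand for Cars, Hars, Lars, Nars, Rars, Vars and Wars, so whether they hold a match is unknown. Of these, Cars, Lars and Nars rose in KO and Hars fell. A link between match and change was not tested. The search also took CACGTG, the E-box bound by Myc family proteins, which stood in 4 of 13 cytosolic genes, 1 of 14 mitochondrial genes and 8.09% of all genes with a window, and no match of 1 motif overlapped the other. A match describes letters in the window and no match says only that these letters are not in it. The 5 matching promoters follow, with Sars and Kars, which rose and fell in KO and hold no match, for comparison; capitals mark TGATGNAA or its reverse complement. The windows are Aars chr8:111033592-111033891 (plus strand), Gars chr6:55037751-55038050 (plus strand), Iars chr13:49681880-49682179 (plus strand), Tars chr15:11399609-11399908 (minus strand), Yars chr4:129189653-129189952 (plus strand), Sars chr3:108445210-108445509 (minus strand) and Kars chr8:112011305-112011604 (minus strand).
Aars: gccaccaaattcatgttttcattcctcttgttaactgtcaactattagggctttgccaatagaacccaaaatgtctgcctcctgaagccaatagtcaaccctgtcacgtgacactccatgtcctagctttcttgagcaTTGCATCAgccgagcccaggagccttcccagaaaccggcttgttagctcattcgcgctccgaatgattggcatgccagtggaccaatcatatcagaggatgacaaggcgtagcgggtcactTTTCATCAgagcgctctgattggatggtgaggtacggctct
Gars: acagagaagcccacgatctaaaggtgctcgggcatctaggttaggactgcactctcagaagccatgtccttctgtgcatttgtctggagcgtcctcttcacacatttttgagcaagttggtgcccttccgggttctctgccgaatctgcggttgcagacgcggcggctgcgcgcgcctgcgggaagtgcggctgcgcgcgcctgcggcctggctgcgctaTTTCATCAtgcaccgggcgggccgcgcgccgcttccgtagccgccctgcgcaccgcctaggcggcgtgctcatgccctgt
Iars: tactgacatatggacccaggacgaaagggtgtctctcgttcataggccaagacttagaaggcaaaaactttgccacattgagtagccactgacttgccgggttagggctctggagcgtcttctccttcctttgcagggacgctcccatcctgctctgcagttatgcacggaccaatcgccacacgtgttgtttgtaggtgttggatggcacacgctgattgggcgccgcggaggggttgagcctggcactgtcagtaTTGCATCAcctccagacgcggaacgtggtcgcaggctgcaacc
Tars: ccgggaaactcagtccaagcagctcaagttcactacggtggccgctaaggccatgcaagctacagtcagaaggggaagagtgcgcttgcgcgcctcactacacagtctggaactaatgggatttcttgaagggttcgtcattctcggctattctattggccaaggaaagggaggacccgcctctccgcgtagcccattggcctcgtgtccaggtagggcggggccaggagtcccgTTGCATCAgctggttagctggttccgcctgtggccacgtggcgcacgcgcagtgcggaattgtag
Yars: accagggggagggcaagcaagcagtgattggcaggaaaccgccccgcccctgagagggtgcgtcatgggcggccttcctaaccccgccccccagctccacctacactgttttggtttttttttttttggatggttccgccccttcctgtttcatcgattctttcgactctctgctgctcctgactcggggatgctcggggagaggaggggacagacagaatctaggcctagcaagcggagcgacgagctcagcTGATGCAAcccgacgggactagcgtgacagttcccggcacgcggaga
Sars: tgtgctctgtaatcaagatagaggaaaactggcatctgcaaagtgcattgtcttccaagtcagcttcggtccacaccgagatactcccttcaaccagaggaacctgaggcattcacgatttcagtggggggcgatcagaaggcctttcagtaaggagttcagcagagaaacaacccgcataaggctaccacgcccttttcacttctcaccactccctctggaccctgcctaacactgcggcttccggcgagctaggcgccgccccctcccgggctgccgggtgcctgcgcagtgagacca
Kars: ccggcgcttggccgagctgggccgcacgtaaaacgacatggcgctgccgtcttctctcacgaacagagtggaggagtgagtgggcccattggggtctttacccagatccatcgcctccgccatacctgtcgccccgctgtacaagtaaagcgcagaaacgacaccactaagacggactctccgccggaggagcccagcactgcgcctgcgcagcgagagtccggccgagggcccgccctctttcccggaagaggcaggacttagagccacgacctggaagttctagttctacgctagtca
Aars holds 2 matches, and the others 1 each. The matches begin within 30 bases of the start site in Gars, Iars, Tars and Yars, and at 112 bases before and 10 bases after it in Aars.

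In the mitochondrial set, 6 genes fell and 3 rose in KO. Fars2, the phenylalanine enzyme, measured 289.9 and 252 in KO, against 432 and 371 in WT normalised counts (log2 change -0.56, SE 0.11, adjusted p = 0.000984). Tars2, the threonine enzyme, measured 693 and 666 in KO, against 988 and 910.1 in WT (log2 change -0.48, SE 0.07, adjusted p = 0.000134). Sars2, the serine enzyme, measured 346 and 329 in KO, against 481 and 441 in WT (log2 change -0.45, SE 0.09, adjusted p = 0.00121). In these genes both KO libraries lay below both WT libraries, in Tars2 and Sars2 while the cytosolic gene for the same amino acid rose. Iars2, the isoleucine enzyme, measured 1668 and 1631 in KO, against 2067 and 2189 in WT (log2 change -0.37, SE 0.06, adjusted p = 0.000365). Vars2, the valine enzyme, measured 788 and 716 in KO, against 1014 and 915 in WT (log2 change -0.36, SE 0.09, adjusted p = 0.00426). Aars2, the alanine enzyme, measured 647 and 586 in KO, against 770.0 and 699 in WT (log2 change -0.25, SE 0.08, adjusted p = 0.0261). The groups of these genes did not overlap either. Nars2, the asparagine enzyme, had the largest rise of a mitochondrial member, with 266 and 281 in KO, against 169 and 175 in WT (log2 change 0.67, SE 0.12, adjusted p = 0.000389). Yars2 measured 605 and 643 in KO, against 516 and 524 in WT (log2 change 0.26, SE 0.09, adjusted p = 0.0257). Wars2, the tryptophan enzyme and the member with the fewest reads, measured 53.8 and 56.3 in KO, against 45.4 and 37.3 in WT (log2 change 0.41, SE 0.15, adjusted p = 0.0422). In these 3 genes the KO libraries lay above the WT libraries. Lars2 was not called, with 3839.7 and 6523 in KO, against 5463 and 5239.6 in WT (log2 change -0.10, SE 0.29), and its KO libraries stood on both sides of the WT libraries. The other 6, Cars2, Ears2, Hars2, Mars2, Pars2 and Rars2, had log2 changes between -0.20 and 0.06 and were not called.

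Of the 22 calls in KO, 12 were kept under all 21 alternatives that set no minimum change. Those of Aars, Tars, Yars, Nars2 and Vars2 were lost under another scaling or in the FPKM values, with adjusted p up to 0.351, 0.0568, 0.231, 0.13 and 0.105. Those of Iars, Yars2 and Wars2 were lost under all 3 other scalings, in the FPKM values and with the experiment fitted alone, with adjusted p up to 0.737, 0.419 and 0.272. The log2 change of Iars was 0.03 with total signal. Aars2 lost its call in the FPKM values, with no filter, with the experiment alone and without the intensity trend (adjusted p up to 0.175), and Kars with the experiment alone or without the trend (up to 0.12). Leaving out single libraries ended further calls. The call of Iars was lost without either KO library or WT replicate 1 (adjusted p of 0.0504 to 0.0897). That of Kars was lost without KO replicate 2 or WT replicate 1 (adjusted p of 0.166 and 0.0803). The call of Aars2 was lost without KO replicate 2 or WT replicate 1 (adjusted p of 0.185 and 0.146), and that of Yars2 without KO replicate 2 or WT replicate 1 (adjusted p of 0.139 and 0.0662). Wars2 lost its call without either KO library, WT replicate 2, either Released library, either ETO library or either Control library (adjusted p of 0.0536 to 0.23).

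**Figure D3:**
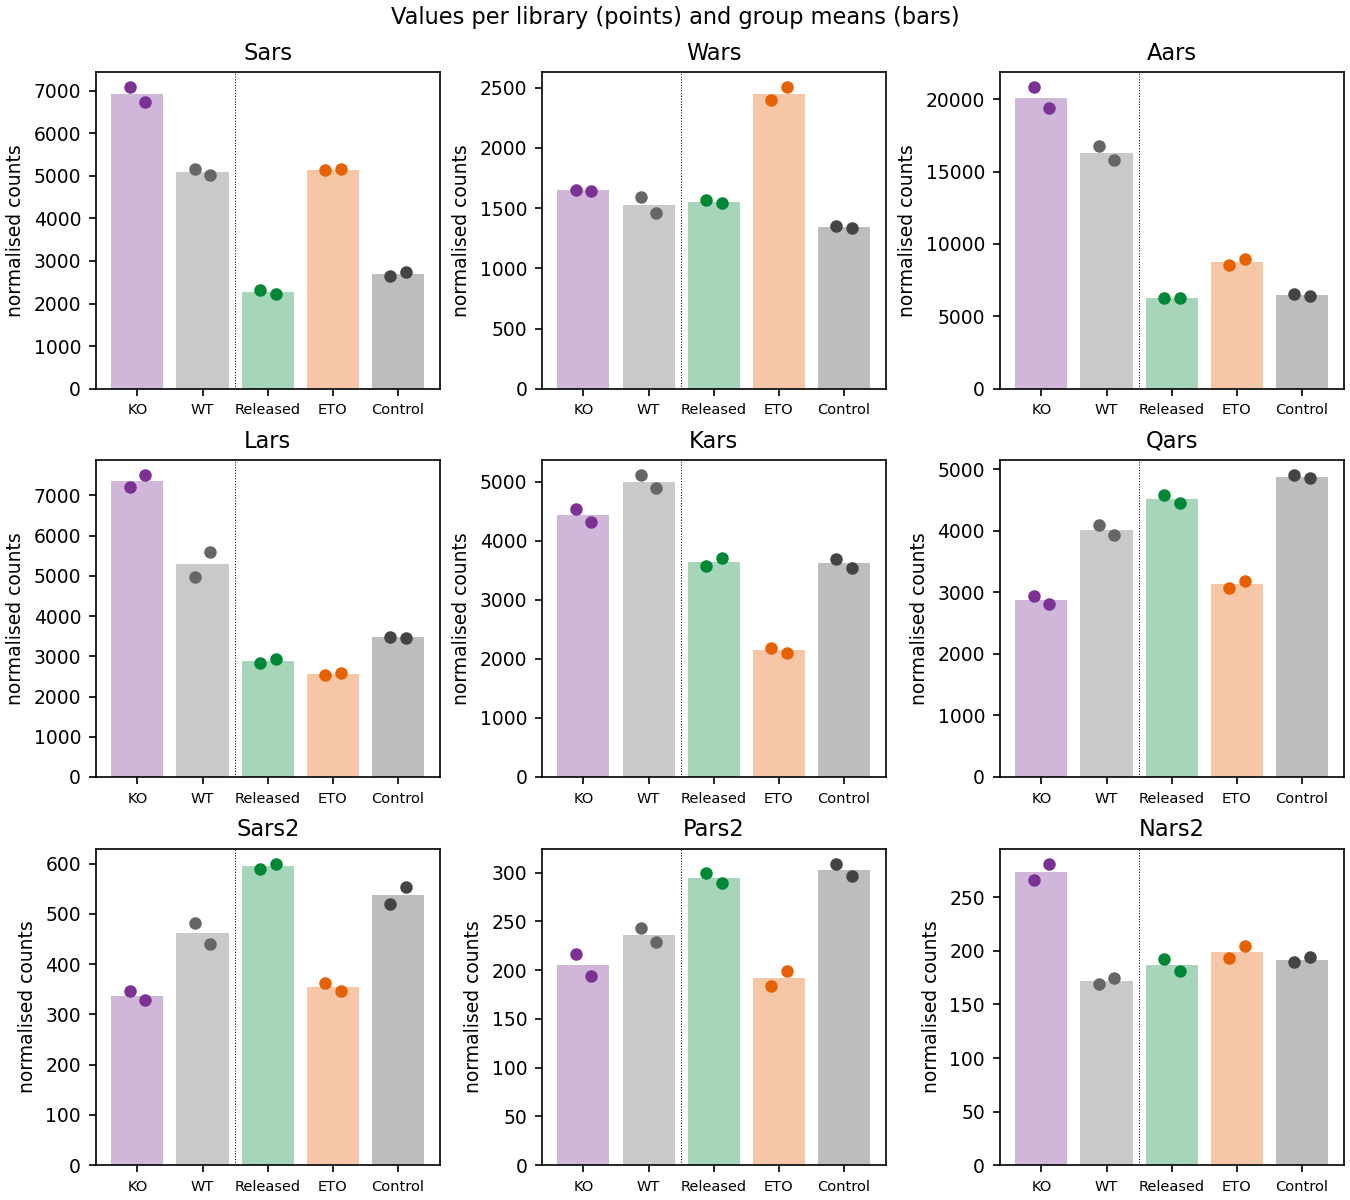
Normalised counts of 9 synthetase genes, with a point for each library and a bar for the group mean, for KO and WT (left of the dotted line) and Released, ETO and Control (right). Sars and Aars are high in KO against WT and in ETO against Control, Lars is high in KO and low in ETO, and Kars, Qars, Sars2 and Pars2 are low in ETO and near Control in Released.

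Genes around the synthetases were taken from lists chosen with earlier results of these data known. Their counts of calls in KO stand beside 24.6% of all tested genes that rose and 13.3% that fell. Among other charging enzymes, those that fell in KO included Sepsecs, which makes selenocysteine on its transfer RNA (log2 change -0.65, adjusted p = 0.000457), and Gatb and Gatc. Gatb and Gatc are subunits of the mitochondrial amidotransferase that forms glutaminyl-tRNA, for which there is no mitochondrial glutamine synthetase. Qrsl1, for another subunit of it, was not called in KO (log2 change 0.13, adjusted p = 0.366). Its values were 545 and 662 in KO, against 551 and 544 in WT. Gatb measured 102 and 111 in KO, against 186 and 188.5 in WT (log2 change -0.81, SE 0.12, adjusted p = 9.02e-05), and Gatc changed by -0.56 (adjusted p = 0.0169). Of 4 genes for editing of mischarged tRNA, Prorsd1 rose (1.08, SE 0.15, adjusted p = 7.6e-05) and none fell. Its values were 188 and 211 in KO, against 94.4 and 93.3 in WT, without overlap. Of 8 genes for tRNA export and maturation, 5 rose and 1 fell. They included Xpot, the tRNA exporter (0.49, adjusted p = 6.42e-05), Trnt1, which adds the CCA end (0.40, 0.0043), and Elac2, which trims the end of precursors and fell (-0.76, 3.77e-05). Of 16 genes of the ATF4 and amino acid response, 10 rose and none fell, with a median of 0.51. Atf4 rose by 0.75 (adjusted p = 2.98e-07), Trib3 by 1.70 (3.71e-08) and Chac1 by 2.13 (1.48e-05), whereas Asns, the asparagine synthetase and a known ATF4 target, was not called (0.07). Of 9 mitochondrial translation factors, 2 rose (Mtif2 0.47, Mtrf1l 0.56) and 3 fell (Gfm1 -0.48, Gfm2 -0.42, Mrrf -0.64). The 8 stem cell markers summed to 56252 to 56946 normalised counts in KO, against 60634 to 61601 in WT, and 3 of them rose and 1 fell. Sums of the other marker lists were 2872 to 3014.6 in KO, against 1722 to 1776 in WT, for fibroblast genes and 113 to 151 in KO, against 40.8 to 80.9 in WT, for mesoderm genes. Each of these sums rested on 1 called gene, Vim (log2 change 0.76) and Eomes (1.27), and Col1a1 (0.44), Thy1 (-0.41), T (-0.32) and Mixl1 (-0.13) were not called. Primitive endoderm genes summed to 87.5 to 89.0 in KO, against 102.1 to 102.7 in WT, with calls in both directions. Gata4 fell (log2 change -0.73, adjusted p = 0.0147), Dab2 rose (1.95, 0.0134) and Gata6 was not called (0.66). Dab2 was low, with 12.1 and 27.5 in KO, against 7.40 and 1.96 in WT. Sums for neural genes were 772 to 793 in KO, against 838.5 to 890.4 in WT. Cdx2, the defining trophectoderm factor, was at 0 in all KO and WT libraries. Their part in the synthetase results was not tested.

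The comparison of ETO with Control asks what changes when fatty acid entry into mitochondria is inhibited. Of 20 cytosolic genes 5 rose and 11 fell, and of 16 mitochondrial genes 0 rose and 10 fell. With total signal as the factor, 7 cytosolic genes rose and 7 fell, and 0 mitochondrial genes rose and 6 fell. Among all tested genes 26.8% rose and 34% fell, together 60.8%, so calls were frequent in general; rising genes were 44.1% of them on the authors' scale and 57% with total signal. The median log2 change was -0.24 over cytosolic genes, -0.27 over mitochondrial genes and -0.09 over all tested genes, and both class medians stayed negative under every scaling tried, although the median of all genes moved to 0.07 with total signal. Groups did not overlap for 32 of 36 members, beside 81.6% of all tested genes.

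Sars had 5139.9 and 5151 in ETO, against 2636 and 2744 in Control normalised counts (log2 change 0.94, SE 0.06, adjusted p = 1.37e-09). Wars had 2397 and 2503 in ETO, against 1352 and 1333 in Control (log2 change 0.87, SE 0.07, adjusted p = 1.76e-08). Aars had 8553 and 8976 in ETO, against 6568 and 6415 in Control (log2 change 0.43, SE 0.05, adjusted p = 4.35e-06). In these genes the ETO libraries stood well above the Control libraries, and Sars and Wars changed by more than any other member in this comparison. Eprs had 7387 and 7706 in ETO, against 6380.0 and 6152 in Control (log2 change 0.27, SE 0.07, adjusted p = 0.0028). Gars had 6271 and 6103 in ETO, against 5205.5 and 5255 in Control (log2 change 0.24, SE 0.05, adjusted p = 0.000645). Their ETO libraries also lay above both Control libraries, by less. Cars, Nars, Yars and Farsa were not called, with log2 changes of 0.13, 0.04, -0.06 and -0.16. Of the 5 genes with TGATGNAA in the promoter window printed above, Aars and Gars rose, Iars and Tars fell and Yars was not called.

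The complex carried most of the cytosolic falls: 7 of its 8 synthetase genes fell and Eprs alone rose. Of the 12 cytosolic genes outside it 4 rose and 4 fell. Kars had 2183 and 2103 in ETO, against 3699 and 3543 in Control (log2 change -0.76, SE 0.06, adjusted p = 2.25e-08). Qars had 3070.1 and 3192 in ETO, against 4898 and 4854 in Control (log2 change -0.64, SE 0.06, adjusted p = 9.72e-08). Rars had 2428 and 2337 in ETO, against 3304.5 and 3358.5 in Control (log2 change -0.48, SE 0.06, adjusted p = 2.35e-06). These genes were lower in both ETO libraries than in either Control library. Dars had 2302 and 2106 in ETO, against 2979 and 3019 in Control (log2 change -0.45, SE 0.07, adjusted p = 5.3e-05). Lars had 2531 and 2596 in ETO, against 3485 and 3454 in Control (log2 change -0.44, SE 0.06, adjusted p = 1.96e-05). Mars had 2339 and 2527 in ETO, against 3107 and 2965 in Control (log2 change -0.32, SE 0.07, adjusted p = 0.00054). The groups of these genes did not overlap. Mars shares 2.0% of its exon bases with Ddit3, a stress gene on the opposite strand that rose by 4.09 in ETO. Iars had 4052 and 4169.7 in ETO, against 4999.6 and 4775 in Control (log2 change -0.25, SE 0.06, adjusted p = 0.0017), with both ETO libraries again the lower ones. The scaffold genes fell as well: Aimp1 by 0.30 on the log2 scale (adjusted p = 0.004), Aimp2 by 0.54 (9.21e-05) and Eef1e1 by 0.32 (0.000959).

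Outside the complex, 4 genes fell. Vars had 1807 and 2102 in ETO, against 2513 and 2452.5 in Control (log2 change -0.35, SE 0.09, adjusted p = 0.00293). Hars had 1226 and 1271 in ETO, against 1634 and 1519.6 in Control (log2 change -0.34, SE 0.07, adjusted p = 0.00049). Tars had 3567 and 3468 in ETO, against 4438 and 4338 in Control (log2 change -0.32, SE 0.06, adjusted p = 0.000168). Each was lower in both ETO libraries. Farsb had 1829.5 and 1782.5 in ETO, against 2112 and 2124 in Control (log2 change -0.23, SE 0.07, adjusted p = 0.0138), the smallest called change of a cytosolic member.

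Of the mitochondrial genes, Pars2, the proline enzyme, had 184 and 199 in ETO, against 309 and 297 in Control (log2 change -0.66, SE 0.11, adjusted p = 0.000112). Sars2 had 362 and 346 in ETO, against 519.6 and 554 in Control (log2 change -0.60, SE 0.09, adjusted p = 3.3e-05). Ears2, the glutamate enzyme, had 216.5 and 231 in ETO, against 369 and 305 in Control (log2 change -0.58, SE 0.12, adjusted p = 0.000719). All ETO libraries of these genes were below all Control libraries. Yars2 had 448 and 451 in ETO, against 649 and 632 in Control (log2 change -0.51, SE 0.09, adjusted p = 9.75e-05). Iars2 had 1259 and 1204 in ETO, against 1738 and 1718 in Control (log2 change -0.49, SE 0.06, adjusted p = 6.63e-06). Aars2 had 525 and 505 in ETO, against 675 and 667 in Control (log2 change -0.38, SE 0.08, adjusted p = 0.000927). These were lower in both ETO libraries too. Mars2 had 297.5 and 321 in ETO, against 379.8 and 396.5 in Control (log2 change -0.33, SE 0.11, adjusted p = 0.0194). Vars2 had 402 and 383 in ETO, against 492 and 474 in Control (log2 change -0.30, SE 0.09, adjusted p = 0.00709). Cars2, the cysteine enzyme, had 368 and 410.2 in ETO, against 501 and 423 in Control (log2 change -0.24, SE 0.10, adjusted p = 0.0412). Their ETO libraries were the lower ones, by a small margin in Cars2. Tars2 had 798 and 802 in ETO, against 923.5 and 903 in Control (log2 change -0.19, SE 0.07, adjusted p = 0.0337), again without overlap. Fars2, Hars2, Lars2, Nars2, Rars2 and Wars2 were not called, with log2 changes between -0.18 and 0.19.

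Of the 26 calls in ETO, 17 were kept under all 21 alternatives that set no minimum change. The calls of Iars, Mars and Vars were lost with total signal and in the FPKM values, with adjusted p up to 0.215, 0.372 and 0.175, and that of Pars2 in the FPKM values (0.189). Those of Farsb, Cars2, Mars2 and Tars2 were lost under all 3 other scalings and in the FPKM values (adjusted p up to 0.48, 0.519, 0.233 and 0.814), and that of Vars2 with median-of-ratios factors, with total signal and in the FPKM values (up to 0.22). Leaving out single libraries ended the following calls. That of Farsb was lost without ETO replicate 2 or either Control library (adjusted p of 0.0626 to 0.0762), and that of Vars without ETO replicate 1 (adjusted p = 0.0608). Cars2 lost its call without either Released library, ETO replicate 1 or Control replicate 1 (adjusted p of 0.0553 to 0.381). Mars2 lost it without ETO replicate 1 or either Control library (adjusted p of 0.0538 to 0.122), and Vars2 without ETO replicate 2 or Control replicate 1 (adjusted p of 0.0545 and 0.0539). Tars2 lost it without either Released library, either ETO library or either Control library (adjusted p of 0.0517 to 0.139).

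Around the synthetases, 10 of the 16 ATF4 and amino acid response genes rose in ETO and 2 fell, with a median of 0.81. This count and those of the other lists stand beside 26.8% of all tested genes that rose and 34% that fell. Ddit3 had 1476 and 1542 in ETO, against 99.2 and 76.9 in Control (log2 change 4.09, SE 0.13, adjusted p = 2.41e-12). Slc7a11, a cystine transporter, had 1083 and 1157 in ETO, against 11.0 and 16.6 in Control (6.27, SE 0.23, 7.7e-12). Atf4 had 8608 and 8331 in ETO, against 5052.5 and 4959.9 in Control (0.76, SE 0.05, 1.1e-08). These genes separated the groups widely, whereas Asns fell by 0.46 (adjusted p = 4.65e-07) and Psat1, a serine synthesis enzyme, by 0.28 (0.000178). Of the other charging enzymes, Gatb fell by 0.41 (0.00617), and Mtfmt, which formylates the initiator tRNA of mitochondria, rose (0.33, 0.0373). Of 8 genes for tRNA export and maturation, 2 rose and 6 fell, among them Pop1, a subunit of RNase P, by 1.60 (9.51e-11). Of 4 editing genes 2 fell, Dtd1 by 0.95 (1.14e-05) and the merged row of Aarsd1 by 0.53 (3.51e-05). The merged row of Gcn1l1, a partner of Gcn2, rose (0.51, 0.000116), while Eif2ak4 was not called (-0.12). Of 9 mitochondrial translation factors 0 rose and 6 fell, with Tufm, the elongation factor, falling by 0.86 (0.000409).

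Markers of cell type moved with the same comparison, in which 26.8% of all tested genes rose and 34% fell. All 8 stem cell markers fell in ETO, and their sum lay between 37776 and 39675 normalised counts in ETO, against 62775 to 62979.9 in Control. Of 4 trophectoderm markers 3 rose and 1 fell, and their sum was 4932 to 5296 in ETO, against 319.6 to 346 in Control, mainly from Krt8 and Krt18; Cdx2, the defining factor, had 5.93 and 7.47 in ETO, against 61.6 and 35.3 in Control. The 4 primitive endoderm markers summed to 531 to 554.5 in ETO, against 223 to 243 in Control, with Gata4 and Gata6 rising and Sox17 at 5.93 and 7.47 in ETO, against 1.10 and 6.23 in Control. Mesoderm markers (3 genes) summed to 532 to 548 in ETO, against 261 to 303 in Control. Within them Eomes rose by 2.60 on the log2 scale, while T fell (7.91 and 7.47 in ETO, against 172 and 193 in Control, log2 change -4.40) and Mixl1 was not called (-1.01). Neural markers (3 genes) summed to 714 to 725.5 in ETO, against 214 to 235.5 in Control, with a rise of Nes (1.83) and no call for Sox1 and Pax6. Fibroblast markers (4 genes) summed to 2739 to 2751 in ETO, against 6544 to 6552 in Control. There Vim fell (-1.33) and Col1a1 rose (152 and 154 in ETO, against 39.6 and 40.5 in Control, log2 change 1.91), and Col1a2 was at 0 in 1 ETO library. Mitochondrial gene rows took 0.761% and 0.588% of the signal in ETO, against 3.39% and 3.34% in Control. The part of these shifts in the synthetase results was not tested.

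The Released group was sampled 4 days after etomoxir was withdrawn. Its comparisons with ETO and with Control share libraries with the one above, so only their own values are set side by side. Because the ETO libraries enter both, a call in ETO favours in advance the opposite call in Released against ETO. Against ETO, 11 cytosolic genes rose and 6 fell, and 9 mitochondrial genes rose and 0 fell, beside 33.1% and 24.6% of all tested genes (57.7% together; rising genes were 57.4% of all calls, and 45.8% with total signal). The cytosolic balance turned with the scaling, with 5 rises and 9 falls with total signal, 6 and 8 with median-of-ratios factors and 8 and 8 with TMM factors, while 6 to 7 mitochondrial genes rose and 0 fell. The medians were 0.19 for cytosolic, 0.26 for mitochondrial and 0.1 for all tested genes, positive for both classes under every scaling tried. Groups did not overlap for 32 of 36 members, beside 81% of all tested genes. Against Control, 1 cytosolic gene rose and 4 fell, and 0 mitochondrial genes rose and 1 fell, where 7.03% of all tested genes rose and 5.51% fell (12.5% together; rising genes were 56.1% of all calls, and 66.5% with total signal). The medians there were -0.10, -0.02 and 0.01, and groups did not overlap for 23 members, beside 61.7% of all tested genes. Markers moved with these comparisons. The 8 stem cell markers all rose against ETO and none was called against Control, with sums of 62863 to 62950.2 in Released, 37776 to 39675 in ETO and 62775 to 62979.9 in Control. Against Control, Krt8 (log2 change 1.23), Krt18 (2.50), Krt7 (1.03), Gata6 (1.22) and Nes were higher in Released and Vim was lower (-0.45). The trophectoderm list summed to 794 to 884 in Released, 4932 to 5296 in ETO and 319.6 to 346 in Control, the primitive endoderm list to 574 to 651.5, 531 to 554.5 and 223 to 243 in the same groups. Most of the primitive endoderm sum in Released was Dab2, with 503 and 583.5. Dab2 was not called against ETO (log2 change 0.96, adjusted p = 0.124) or Control (1.47, 0.0906). Gata4 and Gata6 fell in Released against ETO (log2 changes -1.95 and -2.01). The part of these markers in the synthetase results was not tested.

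In Released against ETO, 6 cytosolic genes fell, beside 24.6% of all tested genes. Sars measured 2323 and 2237 in Released (against ETO log2 change -1.17, SE 0.06, adjusted p = 1.74e-10; against Control log2 change -0.24, SE 0.06, adjusted p = 0.011). Wars measured 1571 and 1539.7 (against ETO log2 change -0.66, SE 0.07, adjusted p = 4.76e-07; against Control log2 change 0.21, SE 0.07, adjusted p = 0.0441). Sars thus lay below both Control libraries and Wars above both. Gars measured 4317 and 4406 (against ETO log2 change -0.50, SE 0.05, adjusted p = 5.18e-07; against Control log2 change -0.26, SE 0.05, adjusted p = 0.00324). Aars measured 6271 and 6275 (against ETO log2 change -0.48, SE 0.05, adjusted p = 1.59e-06) and Eprs 5514.5 and 5542.5 (against ETO log2 change -0.45, SE 0.07, adjusted p = 3.7e-05). Gars was below both Control libraries, and Aars and Eprs were below them without a call (log2 changes -0.05 and -0.18). Nars, not called in ETO, also fell against ETO, with 5771 and 5716 in Released (log2 change -0.19, adjusted p = 0.00528).

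The cytosolic genes that rose in Released against ETO numbered 11, beside 33.1% of all tested genes, and Iars was not called. Kars measured 3579 and 3707.5 in Released (against ETO log2 change 0.77, SE 0.06, adjusted p = 2.38e-08). Qars measured 4589 and 4454 (against ETO log2 change 0.53, SE 0.06, adjusted p = 9.23e-07). Rars measured 3126 and 3119 (against ETO log2 change 0.39, SE 0.06, adjusted p = 2.55e-05). Kars overlapped with the Control libraries, and Qars and Rars were below it without a call. Lars measured 2823 and 2932 (against ETO log2 change 0.17, SE 0.06, adjusted p = 0.0324; against Control log2 change -0.27, SE 0.06, adjusted p = 0.0102). Iars measured 3856 and 4167 (against ETO log2 change -0.04, SE 0.06, adjusted p = 0.619; against Control log2 change -0.29, SE 0.06, adjusted p = 0.00484). Both stayed below the 2 Control libraries. Dars, Farsb, Hars, Mars, Tars and Vars rose against ETO by 0.31, 0.22, 0.31, 0.26, 0.22 and 0.24 on the log2 scale, with adjusted p between 0.00104 and 0.0276, and Farsa, not called in ETO, by 0.26 (0.00623).

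Among the 16 mitochondrial genes, 9 rose and 0 fell in Released against ETO, beside 33.1% and 24.6% of all tested genes. Sars2 measured 589.5 and 599.9 in Released (against ETO log2 change 0.75, SE 0.09, adjusted p = 3.9e-06). Ears2 measured 350.5 and 371.5 (against ETO log2 change 0.69, SE 0.12, adjusted p = 0.000191). Pars2 measured 300.2 and 289 (against ETO log2 change 0.62, SE 0.11, adjusted p = 0.000221). Both Sars2 libraries were above Control, and Ears2 and Pars2 overlapped with it. Aars2, Vars2, Yars2, Tars2, Cars2 and Iars2 rose against ETO by 0.53, 0.46, 0.44, 0.28, 0.25 and 0.21 (adjusted p between 5.18e-05 and 0.039). Iars2 remained lower than Control, with 1430.1 and 1412 in Released (against Control log2 change -0.28, SE 0.06, adjusted p = 0.00835). Mars2 was not called against ETO (0.26, adjusted p = 0.0568).

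**Figure D4:**
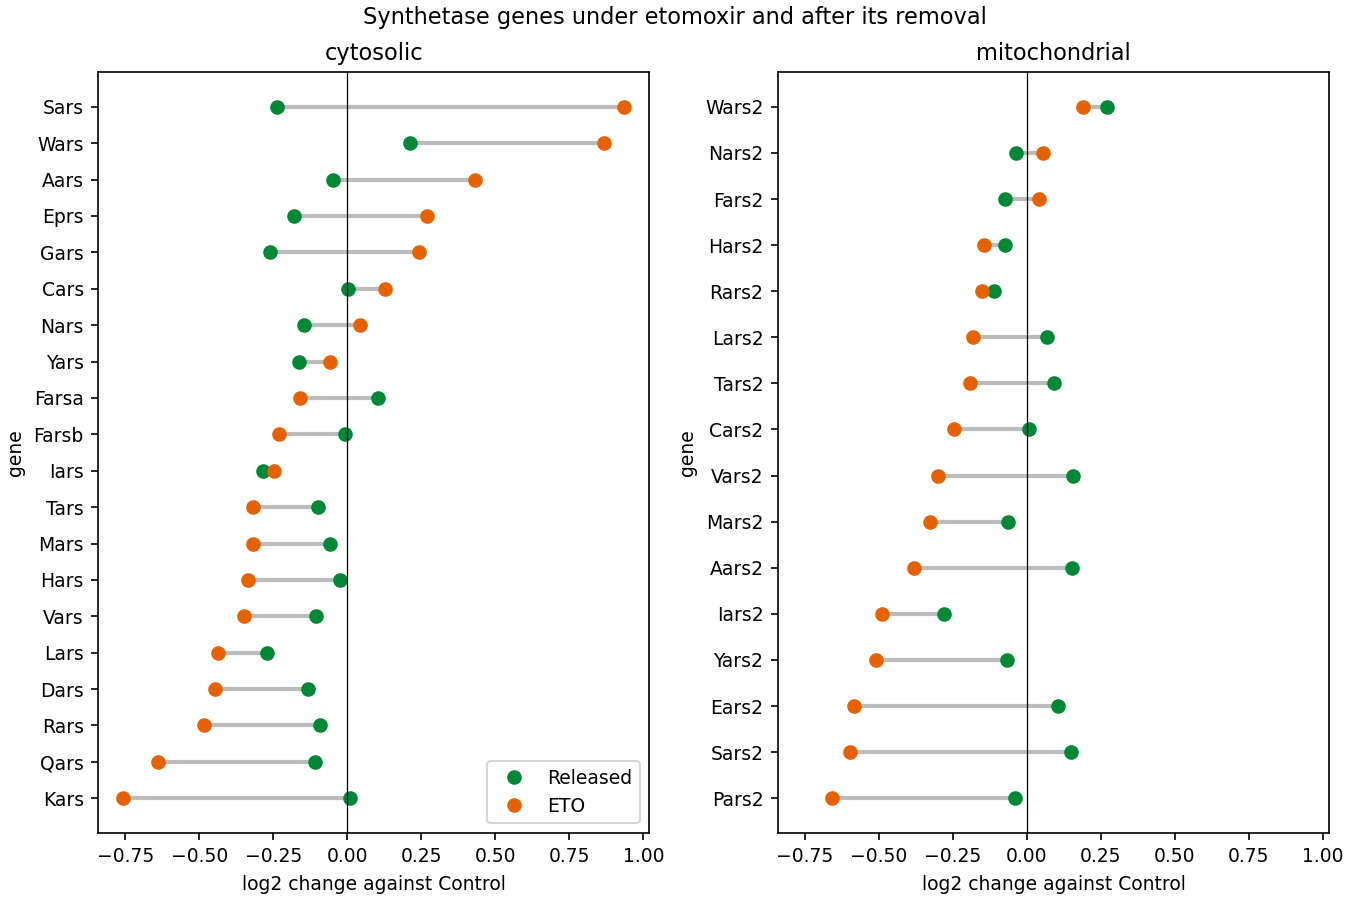
Log2 change against Control of each synthetase gene in Released (green) and ETO (orange), joined by a line, for cytosolic (left) and mitochondrial (right) genes ordered by the ETO change; both share the Control libraries. Released values lie between -0.29 and 0.27, and ETO values between -0.76 and 0.94.

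Against ETO, 15 of 26 calls were kept under all alternatives that set no minimum change. With total signal the calls of Farsa, Farsb, Lars, Mars, Tars, Vars, Cars2, Iars2 and Tars2 were lost (adjusted p of 0.0984 to 0.666), and in the FPKM values also those of Pars2 (0.187) and Yars2 (0.0717). Without ETO replicate 1 the call of Vars was lost (adjusted p = 0.294) together with those of Cars2 (0.253) and Lars (0.134). Without ETO replicate 2 those of Farsa (0.0652), Farsb (0.0911), Lars (0.0661) and Iars2 (0.0794) were lost. Without Released replicate 1 those of Farsb (0.0845), Lars (0.0684), Vars (0.102), Cars2 (0.188) and Iars2 (0.0677) were lost. Without Released replicate 2 those of Farsa (0.0603), Farsb (0.0723), Lars (0.188), Tars (0.0625), Vars (0.101) and Cars2 (0.0746) were lost, and without either Control library that of Lars (0.0528). None of the 6 calls against Control was kept under all alternatives: each was lost in the FPKM values and without the intensity trend. They were also lost when single libraries were left out, Gars without Released replicate 1 (0.0544) and Iars without Released replicate 1 or Control replicate 1 (adjusted p of 0.099 and 0.0783). Lars was lost without either Released library or either Control library (adjusted p of 0.0571 to 0.116), Sars without either Released library or either Control library (adjusted p of 0.0522 to 0.132) and Iars2 without either Released library or either Control library (adjusted p of 0.0612 to 0.0868). Wars was lost without either KO library, either Released library, either ETO library or either Control library (adjusted p of 0.0534 to 0.227).

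The change in KO was then set against the change in ETO, gene by gene, as the KO change minus the ETO change in 1 model. The experiments used different lines, so the perturbation, the line and the experiment cannot be told apart. Of the cytosolic genes 11 had a higher change in KO and 2 a higher change in ETO, and of the mitochondrial genes 4 and 2, beside 32.3% and 22.2% of all tested genes (54.5% together). A higher change in KO made up 59.3% of all these calls, and 35.9% with total signal. The median difference was 0.28 over cytosolic, 0.15 over mitochondrial and 0.13 over all tested genes. Scaled by total signal, the medians turned to -0.05, -0.19 and -0.19, and the counts to 4 and 6 cytosolic and 1 and 3 mitochondrial genes; relative to all genes the cytosolic median lay 0.15 above on the authors' scale and 0.14 above with total signal.

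Genes called in opposite directions were Lars, Tars and Iars among cytosolic genes and Yars2 among mitochondrial ones, all of which rose in KO and fell in ETO. With total signal Lars kept both calls, while the KO rises of Tars, Iars and Yars2 were not called (adjusted p of 0.0568, 0.737 and 0.419). Those of Iars and Yars2 were also not called with median-of-ratios or TMM factors. The difference was 0.91 for Lars (SE 0.09, adjusted p = 5.4e-07), 0.62 for Tars (SE 0.08, 1.02e-05), 0.44 for Iars (SE 0.08, 0.000338) and 0.77 for Yars2 (SE 0.12, 7.07e-05). No member fell in KO and rose in ETO. Wars and Sars were the cytosolic genes with the higher change in ETO, with differences of -0.75 (SE 0.09, adjusted p = 5.91e-06) and -0.50 (SE 0.08, 7.8e-05), although Sars rose in both. Of the 8 genes of the complex 6 had a higher change in KO and 0 a lower one, with differences from 0.16 to 0.91, and Kars was among them although it fell in both comparisons (0.58, SE 0.08, 2.44e-05). Aars, Gars and Eprs rose in both comparisons, and Qars, Hars, Sars2, Iars2, Vars2 and Aars2 fell in both. None of these 9 had a called difference, with Eprs near the threshold (0.23, adjusted p = 0.0515). With total signal 4 of them had a called lower change in KO, at -0.46 for Aars, -0.41 for Hars, -0.39 for Vars2 and -0.20 for Gars (adjusted p of 0.00011 to 0.024). With median-of-ratios or TMM factors Aars and Hars did. A higher change in KO was called for Eprs with a pseudocount of 5 (0.049), a filter at 50 (0.048) and the replicate block (0.00337). With the replicate block it was also called for Qars (0.16, 0.0462) and Gars (0.14, 0.0496). Tars2 fell in both with a larger fall in KO (-0.29, SE 0.10, 0.0271), and Fars2 fell in KO and was not called in ETO (-0.60, SE 0.16, 0.00405). Nars2 rose in KO and was not called in ETO (0.61, SE 0.16, 0.00498).

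**Figure D5:**
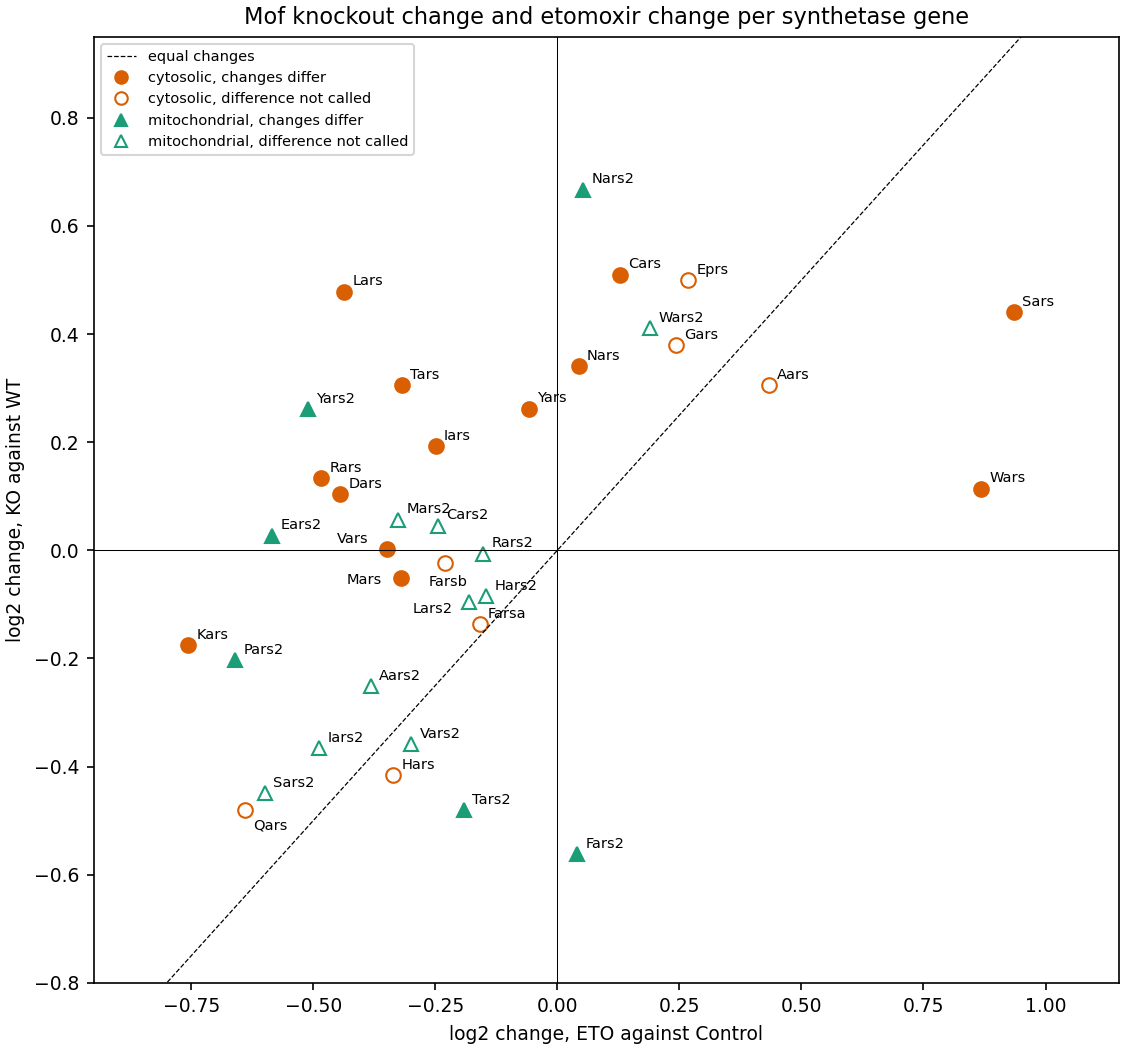
Log2 change in KO against WT (vertical) and in ETO against Control (horizontal) for each synthetase gene, with cytosolic genes as circles and mitochondrial genes as triangles, filled where the 2 changes differ by call, and a dashed line of equal changes. Lars lies farthest above the line (difference 0.91) and Wars farthest below it (-0.75).

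Of 19 called differences 7 were kept under all 20 alternatives that set no minimum change (Kars, Lars, Rars, Tars, Wars, Fars2 and Yars2). With total signal the differences of Iars (0.11, adjusted p = 0.257), Cars (0.05, 0.634), Dars (0.21, 0.0739), Vars (0.02, 0.931), Ears2 (0.28, 0.19) and Nars2 (0.28, 0.163) were no longer called, nor in the FPKM values that of Sars (-0.26, 0.0548). The values of Mars, Nars and Yars turned to -0.07, -0.04 and -0.02 with total signal, and that of Pars2 to -0.11 in the FPKM values. Pars2 was also not called with total signal (0.12, 0.546). With median-of-ratios and with TMM factors Mars, Nars, Vars, Yars and Pars2 were not called (adjusted p of 0.156 to 0.462). The FPKM values also ended the calls of Mars (0.76), Vars (0.235), Ears2 (0.0502), Nars2 (0.425) and Tars2 (0.466). Tars2 was lost with no filter too (0.0572), and Mars and Vars without the trend (0.0907 and 0.126). Leaving out 1 library ended the calls of Mars (without KO replicate 1, WT replicate 2, ETO replicate 1 or Control replicate 1, adjusted p of 0.0504 to 0.0967), Vars (without KO replicate 1, WT replicate 2, ETO replicate 1 or either Control library, adjusted p of 0.0621 to 0.142), Ears2 (without Control replicate 1, adjusted p = 0.0528), Pars2 (without KO replicate 1, WT replicate 2, ETO replicate 1 or Control replicate 1, adjusted p of 0.0575 to 0.0822) and Tars2 (without KO replicate 2, WT replicate 1, either ETO library or either Control library, adjusted p of 0.0544 to 0.081).

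Among the members, 13 amino acids had exactly 1 cytosolic and 1 mitochondrial gene, and only these pairs were formed. Phenylalanine, with Farsa and Farsb in the cytosol, was left out, as were glutamate and proline, which share Eprs. In ETO against Control, Eprs changed by 0.27, Ears2 by -0.58 and Pars2 by -0.66. Farsa changed there by -0.16, Farsb by -0.23 and Fars2 by 0.04. In KO against WT the cytosolic partner had the higher log2 change in 9 of 13 pairs, 1 of them (tyrosine) by less than 0.05, with a median difference of 0.36 (cytosolic minus mitochondrial) and a range from -0.33 to 0.89. In ETO against Control it was 7 of 13, where 3 of the 13 pairs differed by less than 0.05 in either direction, with a median of 0.01 and a range from -0.33 to 1.53, and in Released against ETO 2 of 13, with a median of -0.21. Serine had the widest gap in KO and in ETO. The FPKM of Sars over that of Sars2 was 25.1 and 25.1 in KO, against 11.4 and 12.6 in WT. It was 4.33 and 3.95 in Released, 15.4 and 15.7 in ETO, and 5.54 and 5.25 in Control. Both perturbed groups thus lay above their own unperturbed libraries without overlap, and Released lay below Control. For alanine the ratio of Aars to Aars2 was 26.8 and 27.3 in KO, against 20.4 and 19.3 in WT. It was 6.85 and 8.23 in Released, 14.7 and 15.1 in ETO, and 8.04 and 6.75 in Control. For threonine the FPKM ratio of Tars to Tars2 was 5.41 and 6.80 in KO, against 2.85 and 3.73 in WT. In ETO (3.75 and 3.13) this FPKM ratio overlapped with Control (3.31 and 3.56). On normalised counts Tars fell by more than Tars2 in ETO, with log2 changes of -0.32 and -0.19. For leucine the ratio was below 1 in every library, between 0.239 (ETO) and 0.903 (KO). In normalised counts Lars2 differed between replicates by 0.76 on the log2 scale in KO and by 0.56 in ETO, the widest of all members. For asparagine the ratio of Nars to Nars2 was 22.0 and 32.0 in KO, against 30.2 and 28.3 in WT. For tryptophan the ratio of Wars to Wars2 was 18.2 and 50.3 in KO, against 41.8 and 63.8 in WT. In both pairs the groups overlapped in these FPKM ratios. The FPKM of Wars2 was 3.24 and 1.14 in KO, where its normalised counts were 53.8 and 56.3. On normalised counts the cytosolic log2 change minus the mitochondrial one, in KO against WT, was -0.33 for asparagine and -0.3 for tryptophan. These differences between partners were not tested.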

How the data were processed

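RNA from 10 libraries was sequenced single-end from TruSeq libraries, per the labels' protocols. Per the submitters' processing notes, TopHat2 2.1.1, SAMtools 1.5 and deepTools were used with the build mm10, and the program behind the gene tables is not given in the sources used here. The deposited gene table holds counts per the file headers, and the authors' values are a signal, since reads had been scaled by 1 factor in each library: 84.4% to 85.6% of values were whole reads within 0.1 read. The authors' second table holds FPKM, per the file headers, which were used for levels between genes and as an alternative. Libraries summed to 10562067 to 13326173 normalised counts, and 3 reads, the most that a count of 0 allows, corresponded to 2.07 to 4.04 of them (counting error only).

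Rows of the same name were summed, and 2 mitochondrial rows listed at 0 in 1 Released library were left out. Genes with at least 10 in at least 2 libraries (16056) were fitted as log2(value + 1), which understates changes of low genes, with 1 mean per group over all 10 libraries (limma 3.58.1 in R 4.3.3, empirical Bayes with trend and robust fitting). P-values were two-sided and Benjamini-Hochberg adjusted over all tested genes, with a threshold of 0.05. Values per library were printed for members called with a log2 change of at least 0.5 or in opposite directions, and also for the other called members, which were added after their values were seen. The members, the lists and this rule were chosen with earlier results of these data known. A gene of the lists is not reported here. Alternatives were other scalings, FPKM, pseudocounts, filters, variance models, leaving out merged rows, a minimum log2 change of 0.5, a replicate block and leaving out each library. Positions came from GENCODE M21 and promoters from RefSeq (GRCm38.p6). The procedure was tested on simulated data. Tables and figures were made with Python 3.11.15, pandas 2.3.3 and matplotlib 3.10.9.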

Additional observations from a re-analysis of the deposited data

How the results depend on the processing

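Counts of called members are named only where an alternative moved them by more than 1.5 times from the value in the report. With median-of-ratios factors, 1 mitochondrial gene rose in KO, 6 mitochondrial genes fell in ETO, 6 cytosolic genes rose in Released against ETO, and the KO change exceeded the ETO change in 7 cytosolic genes and fell short in 4. With TMM factors, 1 mitochondrial gene rose in KO, and the KO change was higher in 7 and lower in 4 cytosolic genes. With total signal as the factor, 6 cytosolic genes rose and 6 fell in KO and 1 mitochondrial gene rose; in ETO 7 cytosolic and 6 mitochondrial genes fell; 5 cytosolic genes rose in Released against ETO; the KO change was higher in 4 and lower in 6 cytosolic genes and higher in 1 mitochondrial gene. In the FPKM table, 0 mitochondrial genes rose in KO; 7 cytosolic and 5 mitochondrial genes fell in ETO; 6 cytosolic and 5 mitochondrial genes rose in Released against ETO; 0 were called against Control; the KO change was lower in 1 cytosolic gene, and higher in 1 and lower in 1 mitochondrial gene. With no filter, 1 mitochondrial gene rose in KO, 0 cytosolic genes rose in Released against Control, and the KO change was lower in 1 mitochondrial gene. With each experiment fitted alone, 1 mitochondrial gene rose in KO and 7 cytosolic genes fell in Released against Control. Without trend and robust fitting, 0 cytosolic genes rose, 0 fell and 0 mitochondrial genes fell in Released against Control. Pseudocounts of 0.5 and 5, a filter at 50 and leaving out rows that merge several genes moved no count out of that range. The cause of these shifts was not tested.

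Requiring a log2 change of at least 0.5 left, in KO, 1 cytosolic rise, 0 falls, 1 mitochondrial rise and 1 fall; in ETO, 2 cytosolic rises, 2 falls and 4 mitochondrial falls; in Released against ETO, 2 rises, 3 falls and 4 mitochondrial rises; against Control, 0, 0 and 0; and for the difference, 5 cytosolic higher, 1 lower and 1 mitochondrial lower. With the replicate block, 7 cytosolic genes fell in Released against Control and no other count left that range; the numbers pair nothing in the labels, and same-numbered deviations correlated at 0.0812 (KO and WT), -0.0146 (ETO and Control), 0.0376 (Released and Control) and -0.015 (Released and ETO).

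Leaving out each library in turn gave, in KO, 1 to 2 mitochondrial rises. In ETO it gave 6 to 10 mitochondrial falls. In Released against ETO it gave 6 to 11 cytosolic rises. In Released against Control it gave 0 to 1 cytosolic rises, 0 to 7 cytosolic falls and 0 to 1 mitochondrial falls. For the difference it gave 2 to 5 mitochondrial genes higher in KO and 1 to 2 lower. With total signal, the difference between KO and ETO changes turned to -0.31 for Farsa, -0.20 for Gars, -0.07 for Mars, -0.04 for Nars and -0.02 for Yars, and in the FPKM table to -0.11 for Pars2.

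With 2 libraries per group, and 1 left where a library was left out, the lone library is assumed to vary like the others. Wars2, with at most 43 estimated reads in KO and 49 in WT, limits what its values can show.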

Other observations

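Levels without perturbation can also be set side by side between the lines, which no comparison of the design addresses and for which line, culture and experiment cannot be told apart. By the ratio of mean normalised counts, 17 of 20 cytosolic genes and 8 of 16 mitochondrial genes were higher in WT than in Control. The same share over all tested genes was not worked out, so these counts show nothing particular to synthetase genes. Aars was 2.5 times as high, with 16755 and 15766 in WT and 6568 and 6415 in Control. Sars was 1.89 times as high, with 5168 and 5009 in WT and 2636 and 2744 in Control. Vars2 was 2 times as high in WT, and Wars2 was lower, with 45.4 and 37.3 in WT and 211 and 189.9 in Control, a ratio of means of 0.206 (WT over Control). As a share of all normalised counts, the 20 cytosolic genes took 0.919% and 0.909% in KO, 0.865% and 0.867% in WT, 0.569% and 0.555% in Released, 0.666% and 0.665% in ETO, and 0.592% and 0.592% in Control. No test was made of these levels.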
